A study of Homo sapiens with 2 samples.

Results

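The genes described here are 30 genes of homologous recombination, of the Fanconi anemia pathway and of the checkpoint kinases that act with them, out of 15603 genes in the table. They were chosen by name from knowledge of the pathway, with earlier results of these data known. All 30 were found, with MRE11A listed under its current symbol MRE11. Expression was measured by RNA sequencing in 2 libraries of A172, an established human glioblastoma cell line. The resistant library came from the clone A172-r#6, selected by temozolomide (TMZ) and labelled as grown with that alkylating drug, and the parental library came from A172 cells labelled as grown without it. Each group held 1 library, and the resistant line is 1 clone, so clonal origin, selection and drug exposure cannot be told apart. There is no replicate check on any difference below, and no p-value was computed.

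Homologous recombination copies the sister chromatid to mend a broken chromosome or a collapsed replication fork. The MRE11, RAD50 and NBN proteins sense the ends and RBBP8 helps to trim them, BRCA1, BARD1, PALB2 and BRCA2 load the recombinase on the exposed strand, and its paralogues and RAD54L help it to pair with the intact copy. The Fanconi anemia proteins unhook crosslinks between strands: FANCM anchors a core complex on the DNA, the core complex attaches ubiquitin to FANCD2 and FANCI, and recombination finishes the repair. ATM and ATR signal the damage through CHEK2 and CHEK1. Temozolomide methylates guanine, and replication forks that meet the futile mismatch repair which follows are known to need recombination. Many of these genes are transcribed mainly in cells that replicate their DNA.

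Levels are given in FPKM, fragments counted per kilobase of transcript and scaled by library size, as the authors deposited them. This allows levels of different genes to be set side by side per length. A fold is log2 of resistant FPKM + 1 over parental FPKM + 1, and a gene with 1 FPKM or more in either library was tested and called higher or lower at a 2-fold difference (a log2 fold of 1 in size). Of 13937 tested genes 46.7% had a fold below 0, and the median log2 fold was 0.04. Of 10 glioma and astroglial markers 5 were tested. Of these, NES (5.08 FPKM in the resistant and 33.7 in the parental library) and SOX2 (0.253 FPKM resistant, 2.23 parental) were called lower. VIM had 804 FPKM in the resistant and 632 in the parental library, CD44 had 160.6 FPKM in the resistant and 83.1 in the parental library, and OLIG2 had 3.42 FPKM in the resistant and 1.43 in the parental library, with none of the 3 called. For OLIG2 the plain difference was past 2-fold, and the pseudocount kept it under the threshold. Markers of other cell types differed as well. The pericyte marker RGS5 was called lower, with 1.55 FPKM in the resistant and 22.8 in the parental library, while its other listed entry had 1.60 FPKM in the resistant and 1.87 in the parental library. Of 4 epithelial markers 2 were tested, KRT8, called higher with 905 FPKM in the resistant and 213 in the parental library, and KRT18, with 702 FPKM in the resistant and 392 in the parental library. Of 6 neuronal and oligodendrocyte markers 2 were tested and none called, NEFL at 31.5 FPKM in the resistant and 61.9 in the parental library and SYT1 at 16.1 FPKM in the resistant and 13.3 in the parental library. Of 6 myeloid and lymphoid markers PTPRC was tested and not called, at 0.485 FPKM in the resistant and 1.83 in the parental library. For PTPRC too the plain difference was past 2-fold, and the pseudocount kept it under the threshold. Whether a change in cell character has a part in the differences below was not tested.

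All 30 genes passed the filter. None was called higher in the resistant library, where 4.59% of all tested genes were, and 2 (6.67% of the 30) were called lower, RAD54L and FANCA, where 3.82% of all tested genes were. The folds ran from -1.06 to 0.73 with a median of -0.20, and 19 of the 30 (63.3%) lay below 0. At a looser threshold of 1.5-fold, 6 were lower (20% of the 30, against 12% of all tested genes) and 2 were higher (6.67%, against 14.5%). The 6 were RAD54L, FANCA, FANCI, FANCG, ATM and FANCD2, and the 2 were FANCE and RAD50. The remaining 22 genes lay within 1.5-fold, BRCA1 and BRCA2 among them. The levels of all 30 genes summed to 246 FPKM in the resistant and 283 FPKM in the parental library. Over all 15603 listed genes the sum was 323932 FPKM in the resistant and 299594 FPKM in the parental library. Single levels of the 30 genes ran from 2.06 to 35.4 FPKM in the resistant and from 1.46 to 26.5 FPKM in the parental library.

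**Figure D1:**
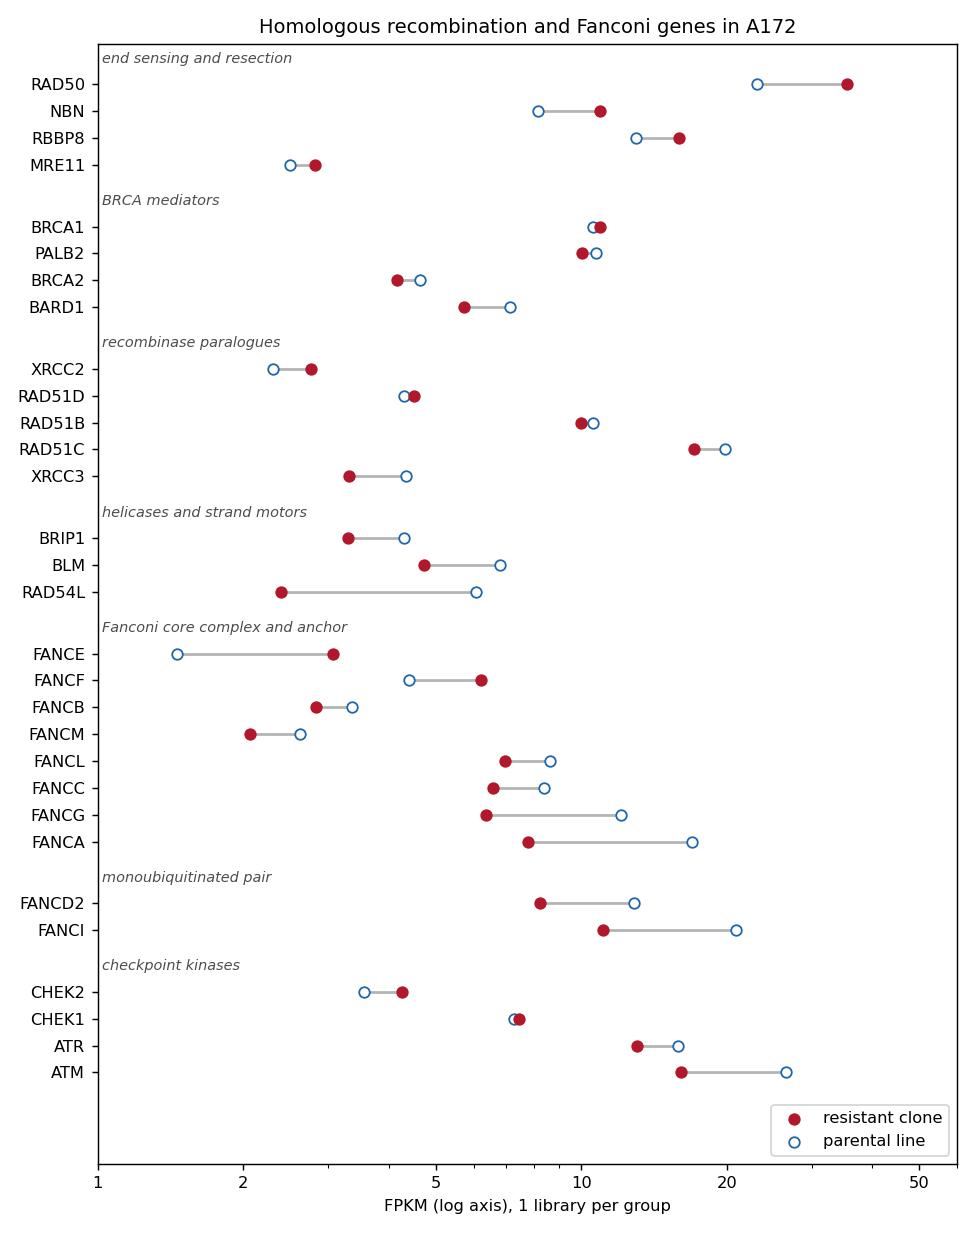
FPKM (log axis) of the 30 genes by role, with a filled red point for the resistant clone and an open blue point for the parental line, 1 library each. The longest gaps to the left belong to RAD54L (2.39 FPKM resistant, 6.07 parental) and FANCA (7.74 resistant, 16.9 parental), and the longest to the right to FANCE (3.07 resistant, 1.46 parental).

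The 2 genes called lower and the gene with the highest fold are shown first, with the sequence around their starts. RAD54L (ENSG00000085999, chromosome 1, 46247688 to 46278473, plus strand, GRCh38) encodes a motor protein that moves along double-stranded DNA and drives strand exchange. It had 2.39 FPKM in the resistant and 6.07 FPKM in the parental library (log2 fold -1.06, 2.54-fold lower by the plain ratio). Of all 30 genes it stood 29th by level in the resistant library and 19th in the parental one. FANCA (ENSG00000187741, chromosome 16, 89737549 to 89816657, minus strand) encodes a large subunit of the Fanconi core complex. It had 7.74 FPKM in the resistant and 16.9 FPKM in the parental library (log2 fold -1.03, 2.18-fold lower by the plain ratio). Of its annotated exon bases 23.6% overlap exons of ZNF276 on the opposite strand, which had 7.18 FPKM in the resistant and 7.56 FPKM in the parental library. FANCE (ENSG00000112039, chromosome 6, 35452356 to 35467103, plus strand) encodes the subunit that binds FANCD2. It had 3.07 FPKM in the resistant and 1.46 FPKM in the parental library, 2.10-fold higher by the plain ratio. Its log2 fold of 0.73 stayed below the threshold because a pseudocount of 1 weighs heavily at that level, and with a pseudocount of 0.1 it was called higher.

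The promoters of these 3 genes, from RefSeq (GRCh38.p14, 250 bases before to 50 bases after the start, in the direction of the gene), are printed to show which sequence words of cell cycle promoters they hold. Searched on both strands were the E2F words TTTCCCGC, TTTGGCGC, TTTGCCGC and TTTCGCGC, the words TTTGAA and TTCGAA of the CHR element (cell cycle genes homology region), and the CCAAT box that NF-Y binds. Capitals mark the matches, and none of them overlap. The sequences lie at chr1:46247438-46247737 (plus strand) for RAD54L, chr16:89816598-89816897 (minus strand) for FANCA and chr6:35452088-35452387 (plus strand) for FANCE.
RAD54L: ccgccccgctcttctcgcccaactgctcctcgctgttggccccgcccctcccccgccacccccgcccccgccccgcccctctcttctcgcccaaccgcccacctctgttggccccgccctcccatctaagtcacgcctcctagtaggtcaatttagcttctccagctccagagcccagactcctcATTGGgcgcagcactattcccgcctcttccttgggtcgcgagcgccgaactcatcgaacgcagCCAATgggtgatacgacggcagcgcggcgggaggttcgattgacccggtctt
FANCA: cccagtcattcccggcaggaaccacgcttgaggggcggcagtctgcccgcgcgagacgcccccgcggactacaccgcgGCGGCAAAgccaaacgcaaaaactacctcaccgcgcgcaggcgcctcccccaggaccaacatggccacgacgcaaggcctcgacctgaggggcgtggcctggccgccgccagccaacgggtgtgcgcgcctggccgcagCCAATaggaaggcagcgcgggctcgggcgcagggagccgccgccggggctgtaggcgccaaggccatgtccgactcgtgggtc
FANCE: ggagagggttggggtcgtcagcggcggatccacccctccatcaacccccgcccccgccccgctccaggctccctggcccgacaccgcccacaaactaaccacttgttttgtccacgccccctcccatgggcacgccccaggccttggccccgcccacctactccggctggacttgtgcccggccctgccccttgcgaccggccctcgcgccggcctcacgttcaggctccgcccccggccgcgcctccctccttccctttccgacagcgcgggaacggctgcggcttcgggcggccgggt
RAD54L held the CCAAT box on each strand, FANCA held 1 CCAAT box and 1 E2F word on the reverse strand, and FANCE held none of the words. Promoters were found for 28 of the 30 genes. None was found for FANCI or NBN, so neither was searched for the words. An E2F word was present in 4 of the 28 (14.3%), FANCA, FANCD2, FANCC and XRCC2, against 3.33% of 27305 promoters of the same length. A CHR word was present in 3 (10.7%), ATM, BRIP1 and FANCC, against 16.6% of all, and a CCAAT box in 12 (42.9%) against 35.7%. The log2 folds of the 4 genes with an E2F word were -1.03 for FANCA, -0.59 for FANCD2, -0.31 for FANCC and 0.19 for XRCC2, so 3 of 4 lay below 0, against 15 of the 24 without one. Below 0 lay 3 of 3 genes with a CHR word against 15 of 25 without, and 8 of 12 with a CCAAT box against 10 of 16 without. A match describes the letters in this window only, and other starts of the same genes were not searched.

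The 4 genes grouped here under end sensing and resection all had folds above 0, under each scaling of the libraries that was run. RAD50, the coiled-coil ATPase that tethers broken ends, had 35.4 FPKM in the resistant and 23.1 FPKM in the parental library (log2 fold 0.59), which made it the most abundant of the 30 genes in the resistant library and the second in the parental one. NBN, which brings ATM to the complex, had 10.9 FPKM in the resistant and 8.15 FPKM in the parental library (0.38). RBBP8 encodes CtIP, the cofactor that starts resection, and had 15.9 FPKM in the resistant and 13.0 FPKM in the parental library (0.27). The nuclease MRE11 was the least abundant of the 4, with 2.82 FPKM in the resistant and 2.50 FPKM in the parental library (0.12). The subunits of this complex therefore lay far apart in mRNA level per length: RAD50 exceeded MRE11 by a factor of 12.6 in the resistant and 9.25 in the parental library. None of the 4 passed the 2-fold threshold. These 4 genes are not the whole of resection. From the wider pathway list, the nuclease EXO1 had 6.05 FPKM in the resistant and 10.1 FPKM in the parental library (-0.66). DNA2, given below, had a log2 fold of -1.01.

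None of the 4 genes that load the recombinase reached 1.5-fold, and BARD1 had the largest difference of them. BRCA1, the ubiquitin ligase and scaffold of this step, had 10.95 FPKM in the resistant and 10.6 FPKM in the parental library (log2 fold 0.05). Its partner BARD1 had 5.71 FPKM in the resistant and 7.12 FPKM in the parental library (-0.28). PALB2, which bridges BRCA1 and BRCA2, had 10.01 FPKM in the resistant and 10.7 FPKM in the parental library (-0.09). BRCA2, which places the recombinase on single-stranded DNA, had 4.15 FPKM in the resistant and 4.63 FPKM in the parental library (-0.13). BRCA1 stood above BRCA2 in both libraries, by a factor of 2.64 in the resistant and 2.28 in the parental one. The BRCA1 fold was so near 0 that its sign changed under 3 other scalings of the libraries.

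The 5 paralogues of the recombinase, which form small complexes that steady its filament, spread on both sides of 0. RAD51C, a member of each of these complexes, was the most abundant, with 17.1 FPKM in the resistant and 19.9 FPKM in the parental library (log2 fold -0.21). RAD51B had 9.99 FPKM in the resistant and 10.6 FPKM in the parental library (-0.07), and RAD51D had 4.51 FPKM in the resistant and 4.29 FPKM in the parental library (0.06, with a sign that changed under 2 other scalings). XRCC2 was the least abundant, with 2.76 FPKM in the resistant and 2.30 FPKM in the parental library (0.19). XRCC3, which pairs with RAD51C, had 3.31 FPKM in the resistant and 4.33 FPKM in the parental library (-0.31). The XRCC3 value is uncertain, since 76.7% of its annotated exon bases overlap exons of KLC1 on the opposite strand. KLC1 had 45.5 FPKM in the resistant and 30.4 FPKM in the parental library, and no source used here says whether reads were counted by strand.

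The 3 genes of helicases and of the strand motor all had folds below 0. Beside RAD54L, the BLM helicase, which dissolves joined molecules without crossing over, had 4.74 FPKM in the resistant and 6.79 FPKM in the parental library (log2 fold -0.44). BRIP1, the helicase that binds BRCA1 and is also known as FANCJ, had 3.29 FPKM in the resistant and 4.31 FPKM in the parental library (-0.31). Of the 3 only RAD54L passed the threshold. In RAD54L 25.1% of the annotated exon bases overlap exons of LRRC41 on the opposite strand, and LRRC41 was higher in the resistant library, at 32.96 FPKM against 24.1 FPKM in the parental one, the reverse of RAD54L.

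The subunits of the Fanconi core complex differed between the libraries in both directions. The complex is built of arms, 1 of FANCA, FANCG and FAAP20, 1 of FANCC, FANCE and FANCF, and 1 of FANCB, FANCL and FAAP100. In the first arm FANCG, the adaptor that stabilises FANCA, had 6.36 FPKM in the resistant and 12.1 FPKM in the parental library (log2 fold -0.83), and its partner FANCA is given above. The ubiquitin-binding subunit FAAP20, which belongs to the wider pathway list, had 17.4 FPKM in the resistant and 15.5 FPKM in the parental library (0.16). So FANCA and FANCG were lower in the resistant library while FAAP20 was not, and after rescaling to a common sum FANCG was called lower as well.

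The second arm, which hands FANCD2 to the ligase, was divided. FANCC had 6.57 FPKM in the resistant and 8.37 FPKM in the parental library (log2 fold -0.31). FANCF, an adaptor of the complex, had 6.21 FPKM in the resistant and 4.41 FPKM in the parental library (0.41), on the same side as FANCE. In the arm that holds the ligase itself no fold reached 1.5-fold. The ubiquitin ligase FANCL had 6.95 FPKM in the resistant and 8.62 FPKM in the parental library (-0.27). FANCB had 2.83 FPKM in the resistant and 3.36 FPKM in the parental library (-0.19), and FAAP100, from the wider list, had 14.4 FPKM in the resistant and 10.4 FPKM in the parental library (0.43). This arm thus had its members on both sides of 0, like the other two. In the first arm only FAAP20 lay above 0, and in this arm only FAAP100. Both were added after their values were seen. FANCM, the translocase that anchors the complex on DNA, had 2.06 FPKM in the resistant and 2.61 FPKM in the parental library (-0.24). Across the 8 genes of the core complex and anchor among the 30, the highest level exceeded the lowest by a factor of 3.75 in the resistant and 11.6 in the parental library, where FANCA was highest and FANCE lowest. FANCA stood over FANCE by a factor of 2.53 in the resistant and 11.6 in the parental library.

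**Figure D2:**
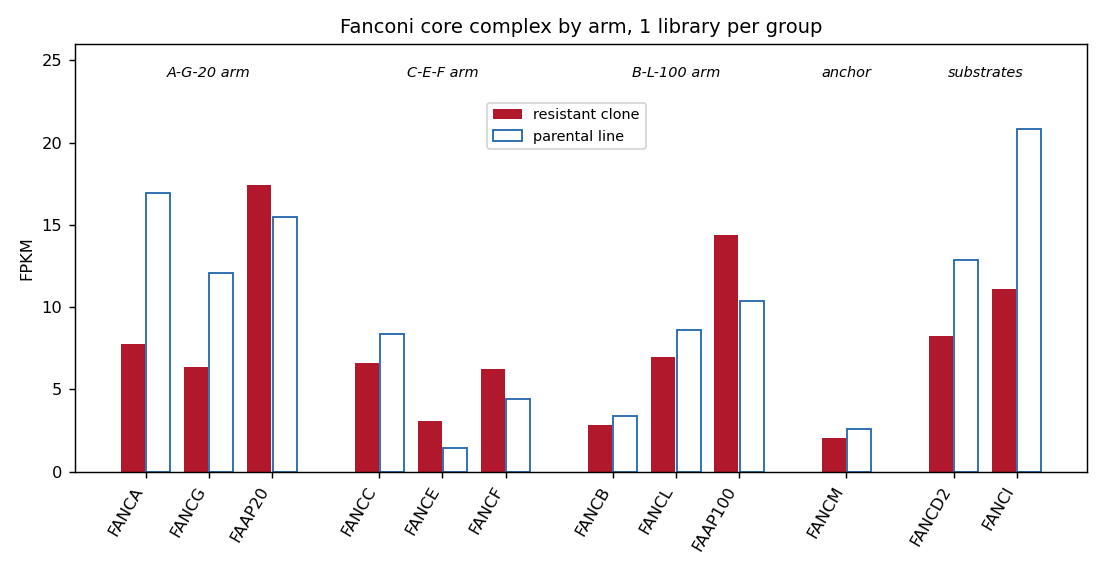
FPKM of the Fanconi core complex subunits by arm, of the anchor FANCM and of the ubiquitinated substrates, with filled bars for the resistant clone and open bars for the parental line, 1 library each. FANCA, FANCG, FANCD2 and FANCI are among those with the shorter bar in the resistant clone, with 11.1 FPKM in the resistant and 20.9 in the parental library for FANCI, and FANCE and FANCF are among those with the taller one.

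FANCD2 and FANCI, the clamp that the core complex ubiquitinates, both had folds below 0. FANCI had 11.1 FPKM in the resistant and 20.9 FPKM in the parental library (log2 fold -0.85), 1.88-fold lower by the plain ratio. Of the annotated exon bases of FANCI 5.90% overlap exons of POLG on the opposite strand. POLG had 10.5 FPKM in the resistant and 14.4 FPKM in the parental library. FANCD2 had 8.22 FPKM in the resistant and 12.9 FPKM in the parental library (-0.59), 1.57-fold lower by the plain ratio. Neither passed the 2-fold threshold on deposited FPKM, and FANCI did after rescaling to a common sum. The proteins form a 1 to 1 clamp, and the FANCI mRNA stood over FANCD2 by a factor of 1.35 in the resistant and 1.62 in the parental library. GENCODE names 1 pseudogene of FANCD2, 1 each of MRE11 and RBBP8, and 4 of CHEK2, so the values of these genes are uncertain where reads could not be placed.

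Among the checkpoint kinases ATM stood apart. ATM, the kinase that answers broken ends, had 16.0 FPKM in the resistant and 26.5 FPKM in the parental library (log2 fold -0.69), 3rd of the 30 genes by level in the resistant library and 1st in the parental one. ATR, the kinase of stalled forks, had 13.1 FPKM in the resistant and 15.9 FPKM in the parental library (-0.26). Their effectors stayed within 1.5-fold. CHEK1 had 7.42 FPKM in the resistant and 7.27 FPKM in the parental library (0.03), and CHEK2 had 4.26 FPKM in the resistant and 3.56 FPKM in the parental library (0.21). Of the annotated exon bases of CHEK2 6.70% overlap exons of HSCB on the opposite strand. HSCB had 5.94 FPKM in the resistant and 3.18 FPKM in the parental library. The sign for CHEK1 changed under 3 other scalings. ATM exceeded ATR by a factor of 1.23 in the resistant and 1.67 in the parental library.

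The authors' deposited table gives a comparison of the 2 libraries by a test that is not stated. Of the 30 genes 3 had a q-value under 0.05 in the authors' deposited table, all lower in the resistant library, where 3.98% of all listed genes were, and none was higher, where 5.13% were. In the authors' deposited table these were FANCA (q-value 0.00024), FANCI (0.0144) and ATM (0.0317). RAD54L, with the largest fold, had a q-value of 0.0684 in the authors' deposited table, and FANCG had 0.0658. FANCA alone of the 30 genes passed both this threshold and the 2-fold one. In the authors' deposited table the q-values were 0.312 for RAD50 and 0.345 for FANCE. Such a test compares these libraries, not the conditions.

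Genes that start back to back with a member from the opposite strand share its promoter region, and these were chosen after values were seen. Within 1000 bases of a RefSeq start of a member, 8 such listed genes were found beside 7 members. FANCI and NBN, for which no RefSeq promoter was found, could not be searched in this way. ATM was lower, while NPAT, a histone gene coactivator that starts 429 bases away, had 4.97 FPKM in the resistant and 4.65 FPKM in the parental library (log2 fold 0.08). BRCA1 had a fold of 0.05, while the noncoding NBR2, 193 bases from a BRCA1 start, was called higher, with 4.89 FPKM in the resistant and 1.63 FPKM in the parental library (1.16). NBR1, beside the other BRCA1 start, had 38.3 FPKM in the resistant and 39.4 FPKM in the parental library (-0.04). PALB2 and its neighbour DCTN5 matched closely, at folds of -0.09 and -0.10, as did MRE11 and ANKRD49, at 0.12 and 0.09. FANCB lay below 0 while MOSPD2, 352 bases away, had 19.5 FPKM in the resistant and 12.5 FPKM in the parental library (0.60). ZFYVE21 beside XRCC3 had 15.2 FPKM in the resistant and 11.8 FPKM in the parental library (0.34), and HSCB beside CHEK2 had 5.94 FPKM in the resistant and 3.18 FPKM in the parental library (0.73).

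The level of neighbouring genes was read because gains and losses of chromosome segments can arise while a line is cloned. For each member the median log2 fold of the 10 tested genes on either side was taken. Among the members lowest in the resistant library, the 20 neighbours of FANCI had a median of -0.34, those of FANCD2 -0.35 and those of FANCA -0.29. Few of these neighbours were called: 1 higher and 2 lower for FANCI, 0 higher and 1 lower for FANCD2, and 1 higher and 0 lower for FANCA. Member minus neighbour median was -0.52 for FANCI, -0.24 for FANCD2 and -0.74 for FANCA on the log2 scale. ATM and FANCG lay among neighbours with medians above 0, at 0.23 and 0.09, and RAD54L among neighbours at -0.15. BRCA2 on chromosome 13 had a fold of -0.13, with neighbours at -0.28 and the other 230 tested genes of that chromosome at -0.23. The neighbours of FANCE had a median of 0.31, with 1 called higher and 1 lower, and those of FANCF had a median of 0.31, with 2 called higher and 2 lower. Of the 30 genes 20 lay below the median of their neighbours. The part of copy number in these differences was not tested.

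**Figure D3:**
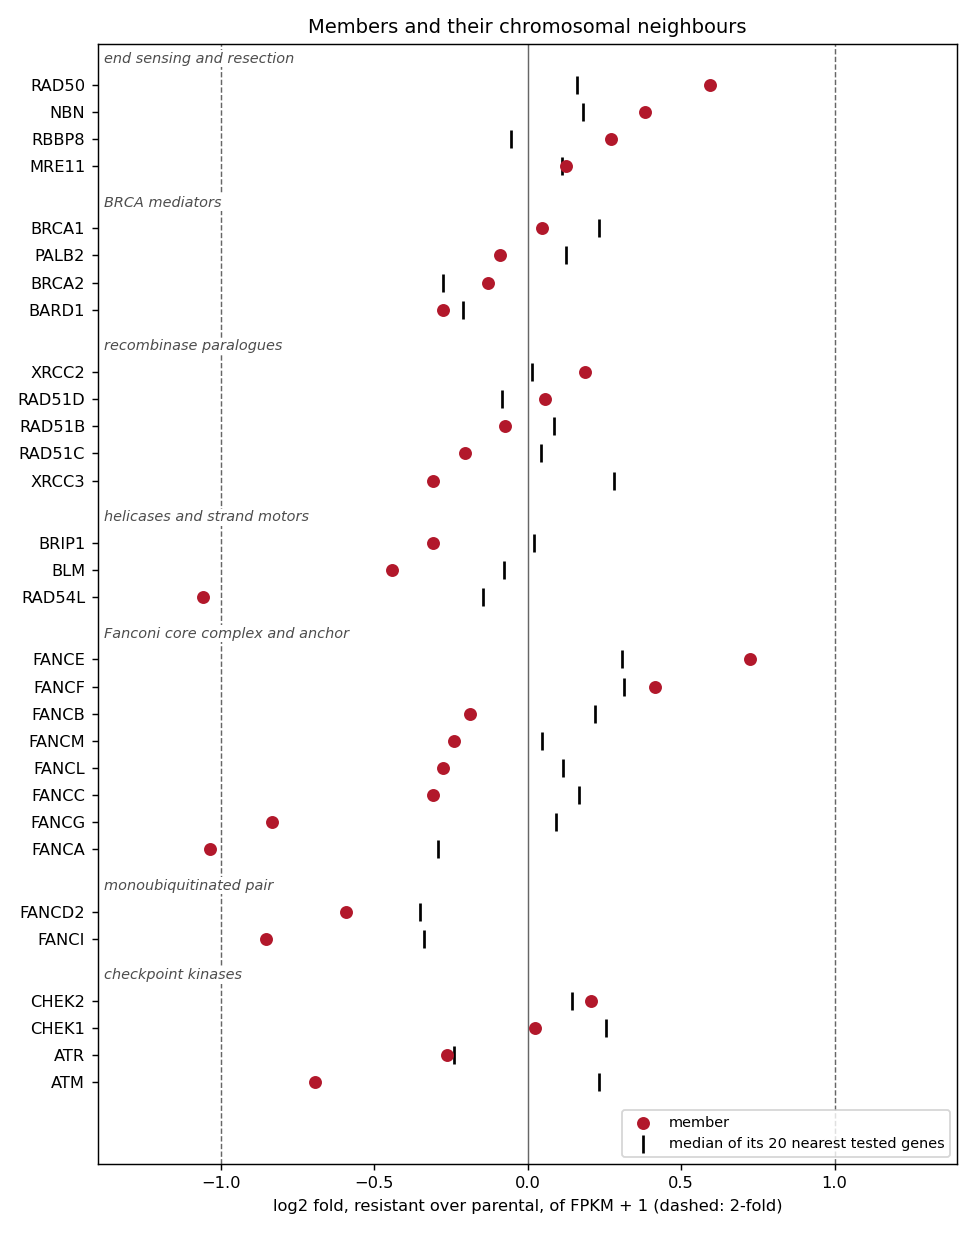
Log2 fold (resistant over parental, FPKM + 1) of each of the 30 genes as a red point, and the median fold of its 20 neighbouring tested genes as a black tick, with dashed lines at 2-fold. RAD54L (-1.06) and FANCA (-1.03) lie past the left line, and ATM (-0.69) lies far from its neighbours (0.23).

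Of 66 other recombination, Fanconi and checkpoint entries tested, which cover 65 genes since ATRIP has 2 entries, 2 were called higher and 1 lower. Over all tested genes 4.59% were called higher and 3.82% lower. Of the 66 entries 39 (59.1%) lay below 0, against 46.7% of all tested genes, with a median log2 fold of -0.07. RNF8, the ubiquitin ligase that marks chromatin at breaks, had 9.36 FPKM in the resistant and 3.83 FPKM in the parental library (1.10). FIGNL1, an ATPase that acts on the recombinase, had 4.37 FPKM in the resistant and 1.51 FPKM in the parental library (1.09). The gene called lower was DNA2, a nuclease and helicase of long-range resection, with 3.66 FPKM in the resistant and 8.403 FPKM in the parental library (-1.01). CLSPN, the mediator between ATR and CHEK1, had 3.56 FPKM in the resistant and 7.36 FPKM in the parental library (-0.88), a plain difference past 2-fold that the pseudocount kept under the threshold. Around the FANCD2 and FANCI pair, these other genes differed in direction. The conjugating enzyme UBE2T had 2.70 FPKM in the resistant and 5.68 FPKM in the parental library (-0.85), also past 2-fold by the plain difference. USP1, which removes the ubiquitin again, had 27.8 FPKM in the resistant and 17.2 FPKM in the parental library (0.66). CLSPN, UBE2T and USP1 were chosen after their values were seen.

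Genes expressed in dividing cells were read beside the 30 genes. Of 33 G1/S and DNA replication genes 25 had folds below 0, with a median of -0.34 and none called, and the sum of their levels was 495 FPKM in the resistant and 627 FPKM in the parental library. PCNA, the replication clamp, had 33.8 FPKM in the resistant and 66.5 FPKM in the parental library, and MCM10, a replication initiation factor, had 1.76 FPKM in the resistant and 4.16 FPKM in the parental library. At the other end CDC6, which loads the replicative helicase, had 16.6 FPKM in the resistant and 9.63 FPKM in the parental library, and cyclin E1, CCNE1, had 6.65 FPKM in the resistant and 4.64 FPKM in the parental library. Of 26 G2/M genes 20 lay below 0, with a median of -0.25 and none called. Their folds ran from -0.99 for the proliferation antigen MKI67 and -0.94 for the mitotic kinesin KIF20A to 0.50 for CCNA2, cyclin A2, and 0.56 for the kinetochore motor CENPE. The plain differences of MCM10, MKI67 and KIF20A were past 2-fold, and the pseudocount kept them under the threshold. The 14 end joining genes, which rejoin breaks without a template, had 7 folds below 0, a median of -0.06 and none called. Their lowest folds were those of DCLRE1C, the Artemis nuclease (-0.62), and XRCC4 (-0.27), and their highest those of TDP2 (0.49) and NHEJ1 (0.33). In bulk RNA a smaller share of replicating cells and less of these mRNAs in each cell cannot be told apart, and the part of cell division in the lower levels of RAD54L, FANCA and the FANCD2 and FANCI pair was not tested.

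**Figure D4:**
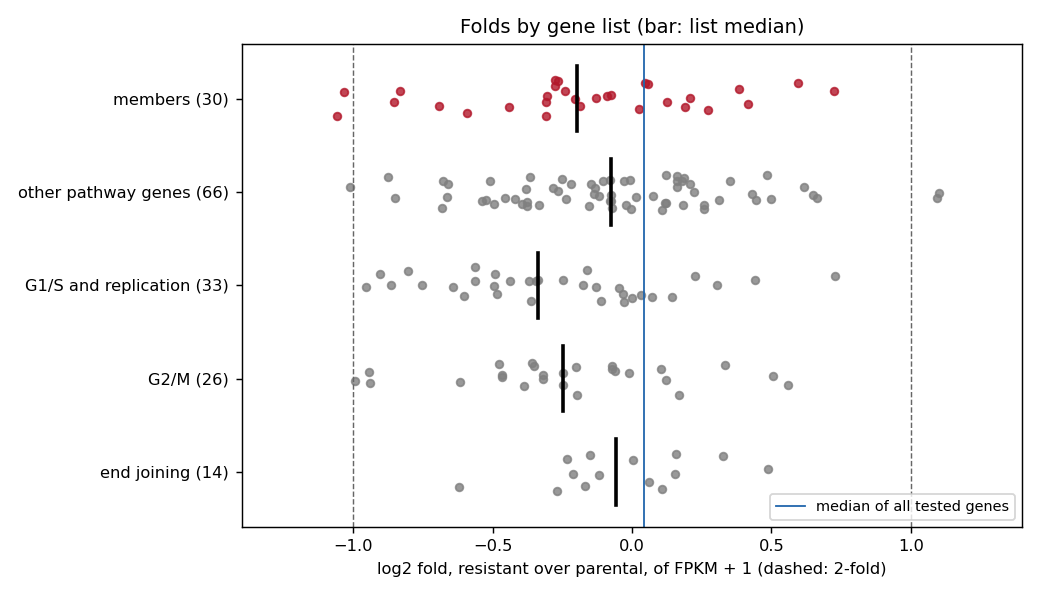
Log2 fold (resistant over parental, FPKM + 1) of the 30 genes and of the genes in 4 other lists, 1 point per listed entry (ATRIP has 2). A black bar lies at each list's median, a blue line at the median of all tested genes (0.04) and dashed lines at 2-fold. The medians are -0.20 for the 30 genes, -0.07 for the other pathway genes, -0.34 for G1/S, -0.25 for G2/M and -0.06 for end joining.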

How the data were processed

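RNA of 1 resistant and 1 parental A172 library was sequenced with a stranded mRNA kit, per the labels' protocols. Not given in the sources used here: aligner, counting tool, annotation, genome build and use of strand. The deposited values are FPKM, per the file headers, with the authors' log2 ratio, p-values and q-values beside them. Low FPKM values of single-exon genes times their length were searched for whole fragments: with the best spacing 25.2% of the resistant and 26.7% of the parental values lay within 0.1 of a whole number, where 20% would by chance, so no counts were recovered and depth is unknown.

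The higher FPKM of every listed gene was at least 0.544. Folds used a pseudocount of 1, a filter of 1 FPKM in either library and a 2-fold threshold, in Python 3.11.15 with pandas 2.3.3. Positions came from GENCODE release 29 (GRCh38), which the table's loci contained for 28 of the 30 genes and for 96.7% of 15531 matched identifiers. Every one of the 30 genes is named. From other lists the called genes, or else the 2 lowest and 2 highest folds, were named. FAAP20 and FAAP100 were added as core complex subunits after their values were seen. CLSPN, UBE2T, USP1 and EXO1 were also added after their values were seen. Members, lists and sequence words were chosen with earlier results of these data known.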

Additional observations from a re-analysis of the deposited data

How the results depend on the processing

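No paired analysis was possible because each group holds 1 library, and for the same reason no library could be left out. RAD54L and FANCA were called lower under every alternative run except the 4-fold threshold, at which none of the 30 genes was called, 61 of all tested genes were higher and 59 lower, and 0 other pathway genes were called in either direction. At 1.5-fold, 2 of the 30 were higher and 6 lower, 5 and 7 of the other pathway genes, and 2020 and 1674 of all tested genes. With a pseudocount of 0.1, FANCE was called, so 1 of the 30 was higher and 2 were lower. At that setting 3 other pathway genes were lower, and of 13937 tested genes 1076 were higher and 1029 lower. The 6.67% of the 30 called lower was then no longer above the share of all tested genes. With a filter of 5 FPKM, which kept 20 of the 30 and 9599 of all genes, 2 of the 20 and 282 of the 9599 were lower. At that filter 1 other pathway gene was higher. Rescaled to the same sum per library (TPM), FANCI and FANCG joined RAD54L and FANCA. So 4 of the 30 and 3 other pathway genes were lower, as were 1076 of 13937 tested genes. There the median log2 fold was -0.33 for the 30 genes, while the median of all tested genes shifted by -0.10. That rescaling also makes each value larger against the pseudocount. The signs of BRCA1 and CHEK1 changed under scaling to the median, the upper quartile or the sum, and that of RAD51D under the last 2 of these. Leaving out genes at 0 in 1 library, a pseudocount of 0.5 and no filter changed no call among the 30. Depth is unknown, so the counting error of low values such as those of FANCE and FANCM cannot be given.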
